A study of Homo sapiens with 6 samples.

Results

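The 6 arrays of this series measured RNA from sorted IGROV1 cells, a human ovarian carcinoma line, and they differ in how strongly they carry a programme of amino acid synthesis and uptake. The arrays of each set were chosen by the measured level of ASNS, the gene for asparagine synthetase: those with a log2 level above 11 formed the ASNS-high set and the others the ASNS-low set. The ASNS-high set holds 3 of the 6 arrays, which are non-SP replicate 2, SP replicate 2 and SP replicate 3. The ASNS-low set holds the other 3, which are non-SP replicate 1, non-SP replicate 3 and SP replicate 1. The sets are not groups of the study. They were read from the values, so every difference between them is a description and carries no p-value.

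The study itself compared the side population (SP), cells that keep little of the DNA dye Hoechst in a cell sorter, with sorted cells outside that gate (non-SP), 3 samples of each. All 6 samples came from the same line, grown in serum-containing RPMI medium, and were exposed to dye and sorting with no further treatment. RNA from so few cells was amplified over the whole transcriptome before labelling, and each sample was hybridised to 1 array. The labels call the samples biological replicates but name no culture, passage, sort session or array batch, so a batch of that kind cannot be told apart from the array sets.

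Cells that run short of an amino acid accumulate uncharged tRNA, which activates the kinase GCN2 (EIF2AK4). Phosphorylation of the translation factor eIF2 alpha by GCN2, or by its relative PERK (EIF2AK3) when proteins misfold in the endoplasmic reticulum (ER), slows protein synthesis in general but favours translation of the transcription factor ATF4. ATF4 binds composite C/EBP-ATF elements, also called amino acid response elements, and switches on genes for amino acid synthesis, amino acid import and tRNA charging.

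Promoters of some genes from the programmes described below are shown as examples, each holding matches to the elements searched for. They are the 250 bases before the transcription start in RefSeq (GRCh38.p14), 5′ to 3′ on the gene's strand. ASNS lies on the minus strand (chr7:97872409-97872658), as do GOT1 (chr10:99430625-99430874) and MKI67 (chr10:128126424-128126673), and CCNB2 lies on the plus strand (chr15:59104896-59105145). Capitals in the first 2 sequences mark matches to the response element TGATGNAA, and capitals in the last 2 mark matches to the CCAAT box (CCAAT) and to the cell cycle element TTTGAA, each searched on both strands.
ASNS: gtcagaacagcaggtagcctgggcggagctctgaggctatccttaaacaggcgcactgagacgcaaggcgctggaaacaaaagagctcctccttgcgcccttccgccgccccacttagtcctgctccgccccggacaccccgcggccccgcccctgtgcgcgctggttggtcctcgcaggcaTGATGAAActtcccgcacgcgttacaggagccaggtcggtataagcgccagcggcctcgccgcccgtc
GOT1: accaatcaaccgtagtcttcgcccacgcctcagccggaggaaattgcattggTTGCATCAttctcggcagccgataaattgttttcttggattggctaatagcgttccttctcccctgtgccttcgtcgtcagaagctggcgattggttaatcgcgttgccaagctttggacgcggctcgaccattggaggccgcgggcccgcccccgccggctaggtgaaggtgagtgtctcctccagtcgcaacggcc
CCNB2: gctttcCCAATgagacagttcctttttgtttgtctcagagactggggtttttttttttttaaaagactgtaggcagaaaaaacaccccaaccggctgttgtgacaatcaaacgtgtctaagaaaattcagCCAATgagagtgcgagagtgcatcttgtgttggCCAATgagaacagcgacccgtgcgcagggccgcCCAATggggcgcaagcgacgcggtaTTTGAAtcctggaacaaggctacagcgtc
MKI67: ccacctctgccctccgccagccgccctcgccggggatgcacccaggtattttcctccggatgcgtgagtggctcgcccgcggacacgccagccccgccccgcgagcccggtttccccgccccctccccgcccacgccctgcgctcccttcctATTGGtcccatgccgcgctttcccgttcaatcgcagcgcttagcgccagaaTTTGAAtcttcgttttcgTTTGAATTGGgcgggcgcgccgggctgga

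The response element in ASNS begins at position -68 from the start and that in GOT1, on the opposite strand, at -198. CCNB2 holds TTTGAA at -29 behind 4 CCAAT boxes, and MKI67 holds it at -47 and -29, the second match sharing a base with a CCAAT box on the opposite strand. Over windows that run to 50 bases past the start, TGATGNAA occurred in 3.67% of 27305 promoters and in 2.62% of the 15384 that matched a measured gene. Of the 304 that matched a gene called higher on the ASNS-high arrays, as defined below, 6.25% held it, ASNS among them. In the amino acid synthesis list 4 of 11 promoters that matched by symbol held it, again with ASNS, and in the transporter list 3 of 14. In the mitochondrial synthetase list it was 1 of 14 and in the cytosolic list 6 of 16. These 6 were AARS1, CARS1, IARS1, MARS1, NARS1 and TARS1. None was called higher, but those measured were higher on all ASNS-high than on all ASNS-low arrays, by less than 1 log2 unit. Of the 22 genes called higher in the synthesis, transporter, cytosolic synthetase and ATF4 lists, ASNS among them, 15 had a matched promoter and 4 of these held it. TTTGAA occurred in 29 of 40 promoters of the mitosis list, in 15.4% of all and in 11.9% of those of measured genes, and CCAAT in 29 of 40, 35.7% and 36.1%. Such matches describe letters in a window, not binding.

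ASNS, which makes asparagine from aspartate, chose the sets. Its log2 level was 12.64, 12.39 and 12.43 on the ASNS-high arrays and 9.60, 9.90 and 9.78 on the ASNS-low arrays, so the nearest arrays on either side of the threshold read 12.39 and 9.90. Throughout, values of the ASNS-high arrays are given in the order non-SP replicate 2, SP replicate 2, SP replicate 3, and those of the ASNS-low arrays in the order non-SP replicate 1, non-SP replicate 3, SP replicate 1. The difference between the sets was 2.76 on the log2 scale, or 6.76-fold; a second, dim ASNS probe set differed by 0.24. This and every later difference is the coefficient of a fit with the sort group as a covariate, which here equals the mean of the difference within non-SP samples and the difference within SP samples.

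The other 5 genes that label this state split the arrays in the same way. They were chosen with earlier results of these data known, so the shared split is a description and does not test the sets. SLC7A11, PHGDH, LAMP3 and LCN2 stay in the list counts below, where only ASNS is left out, so those counts are descriptions too. SLC7A11, the cystine importer of system xc-, read 11.38, 11.06 and 11.01 against 8.19, 7.51 and 7.79, a difference of 3.39, and its 3 probe sets differed by 3.19 to 3.47. PHGDH, the first enzyme of serine synthesis, read 9.23, 9.15 and 9.31 against 7.44, 7.30 and 7.03. The difference between the sets, 2.03 for PHGDH, was several times the spread within either set for both genes. LAMP3, a lysosomal membrane protein, read 7.82, 7.29 and 7.74 on the ASNS-high arrays and was under the level of the negative control probe sets on every ASNS-low array, at 2.56, 2.25 and 2.60. With the control level in place of its own on those arrays, LAMP3 was at least 26.8-fold higher. LCN2, a secreted protein that binds iron-carrying siderophores, read 10.44, 10.39 and 10.53 against 5.04, 6.15 and 5.3, a difference of 5.00. CDKN3, a phosphatase that acts on CDK1 and CDK2 and is made mainly in dividing cells, went the other way, with 7.94, 7.81 and 8.01 against 9.68, 9.71 and 9.32 and a difference of -1.58.

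**Figure D1:**
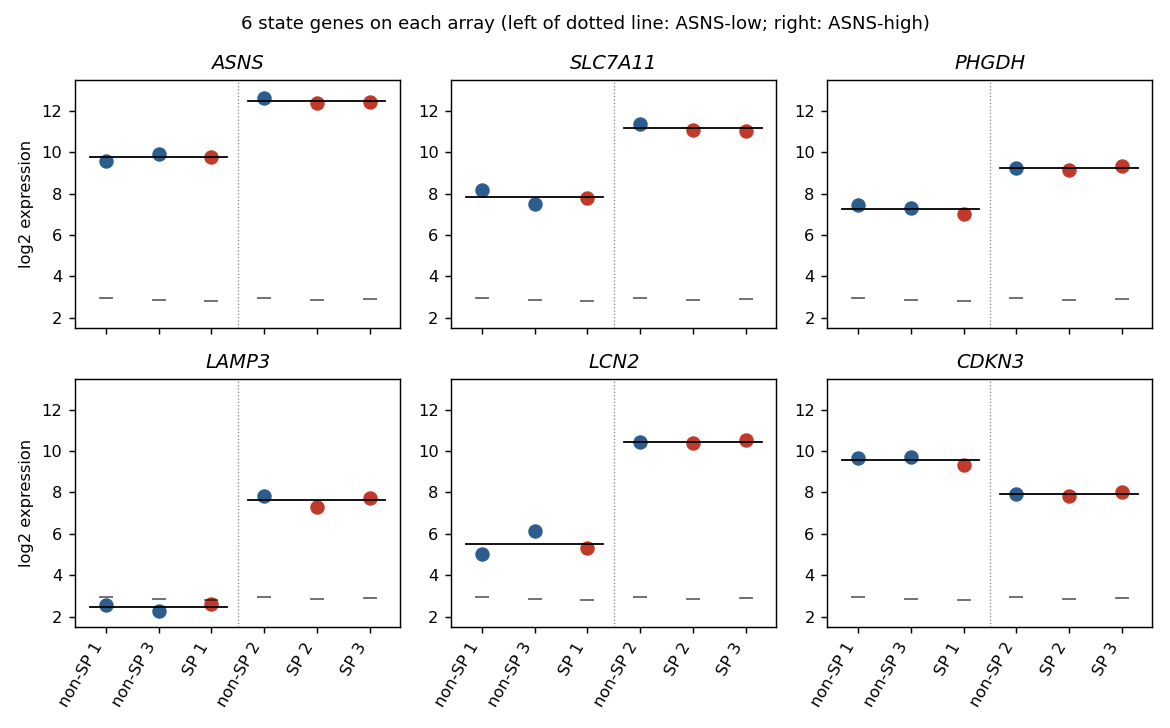
Log2 expression of the 6 state genes (y axis) on each array (x axis), non-SP arrays in blue and SP arrays in red, with the mean of each set as a line and the negative control level of each array as a short grey dash. In each panel the 3 ASNS-high arrays lie together whatever their sort group, and LAMP3 lies below the control level on the ASNS-low arrays.

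The sets differed widely. Of 19775 genes, 2594 (13.1%) were higher and 2716 (13.7%) lower on all ASNS-high than on all ASNS-low arrays. With the further condition of a difference of at least 1 log2 unit, a change of 2-fold, 386 genes (1.95%) were higher and 222 (1.12%) lower, and these are the genes called higher or lower below. The median difference over all genes was -0.01. Non-SP and SP samples give 2 versions of the difference that share no array. Within non-SP samples 656 genes were higher by at least 1 log2 unit in replicate 2 than in the mean of replicates 1 and 3, and within SP samples 512 were higher by that much in replicates 2 and 3 than in replicate 1. These lists shared 256 genes, 39.0% of the first and 50% of the second. For lower genes the lists held 445 and 374 and shared 130, or 29.2% and 34.8%. Only 5 genes higher in the non-SP list were lower by as much within SP samples, and 4 genes of the lower non-SP list were higher by as much within SP samples. Since ASNS chose the arrays in both sort groups, the overlap describes the sets and does not test them.

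**Figure D2:**
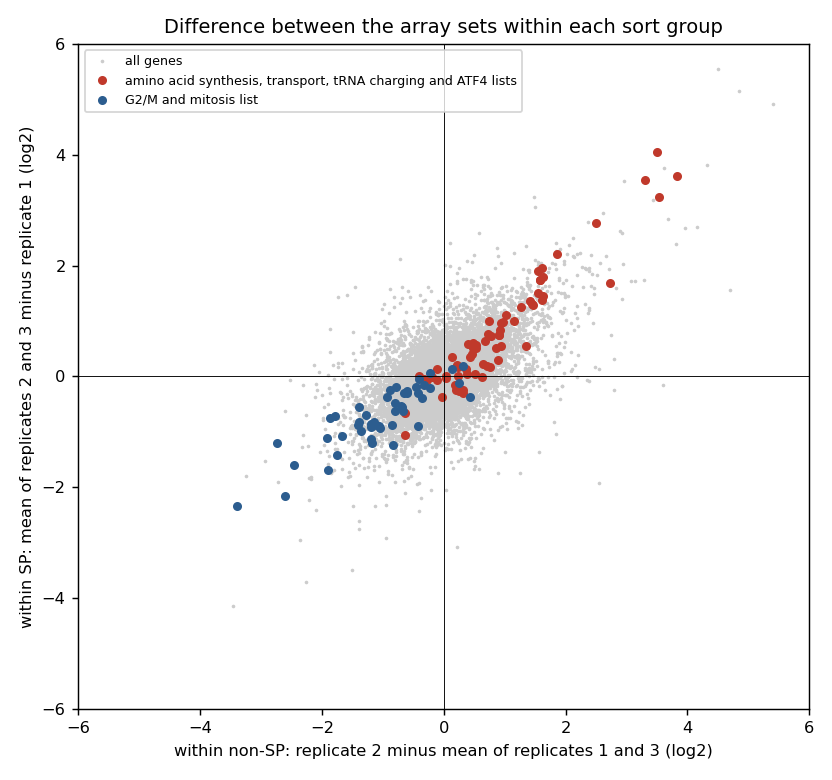
Each point is a gene, with its difference between the array sets within non-SP samples on the x axis and within SP samples on the y axis (log2 units). Genes of the amino acid synthesis, transport, cytosolic tRNA charging and ATF4 lists (red, ASNS left out) lie mostly at the upper right and genes of the G2/M and mitosis list (blue) mostly at the lower left.

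Some enzymes that make amino acids and feed the folate cycle were higher on the ASNS-high arrays. Leaving out ASNS, 4 of 14 measured members were called higher and 0 lower, against 1.95% and 1.12% of all genes. Without overlap 8 were higher and 1 lower (13.1% and 13.7% of all genes were). A difference below 0 was seen for 3 members, and the median difference was 0.52. ALDH1L2, a mitochondrial folate dehydrogenase, read 9.73, 7.71 and 7.71 against 7.0, 7.02 and 6.03, a difference of 2.20. Its level was higher by 2.72 within non-SP samples and by 1.68 within SP samples. MTHFD2, the mitochondrial methylene-tetrahydrofolate dehydrogenase, read 11.62, 11.52 and 11.54 against 9.75, 10.24 and 9.75. GOT1, the cytosolic aspartate aminotransferase, read 10.77, 10.60 and 10.54 against 9.38, 9.33 and 9.21, a difference of 1.39. The remaining member called higher was PHGDH, one of the genes that label the state. PSAT1, the second enzyme of serine synthesis, did not overlap either but differed by 0.95, whereas PSPH, which completes the pathway, differed by 0.21. SHMT1, the cytosolic serine hydroxymethyltransferase, was the member lowest in the ASNS-high set, with 6.77, 7.02 and 6.91 against 7.20, 7.63 and 7.62. Its mitochondrial counterpart SHMT2 differed by 0.49.

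Of 17 amino acid transporters 5 were called higher and 0 lower (1.95% and 1.12% of all genes were), with a median of 0.49. SLC1A4, a carrier of neutral amino acids such as serine and alanine, had the largest difference of the list at 3.42, with 10.52, 9.93 and 10.00 against 7.15, 7.28 and 6.42. Its 5 probe sets differed by 0.57 to 3.62. SLC7A11 came next. The shared heavy chain of both system xc- and the leucine exchanger LAT1, SLC3A2 (4F2hc), read 8.24, 8.21 and 8.28 against 6.85, 6.4 and 6.29, a difference of 1.79. SLC7A5, the LAT1 light chain, differed by 1.72, with 11.96, 11.88 and 11.94 against 10.36, 10.47 and 10.01. Both partners of each of these 2 exchangers were thus higher on the same arrays. SLC7A1, the cationic amino acid transporter CAT-1, differed by 1.08, and the glutamine carrier SLC1A5 (ASCT2) and the lysosomal arginine sensor SLC38A9 did not overlap at 0.97 and 0.95. Members differed among themselves: SLC38A2, a glutamine and alanine transporter of system A, read 12.24, 12.26 and 12.22 against 11.94, 11.91 and 12.48, and its sets overlapped. The members of the list called higher include parts of exchangers, so their RNA levels do not measure net uptake.

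Enzymes that load amino acids onto tRNA act in the cytosol or in mitochondria, and GARS1 and KARS1 each serve both. Of the 17 measured cytosolic aminoacyl-tRNA synthetases, 13 were higher on all ASNS-high arrays without overlap and 0 lower (13.1% and 13.7% of all genes were). Called higher were 3 (1.95% of all genes), and the median was 0.65. YARS1, for tyrosine, read 10.25, 9.93 and 9.98 against 8.59, 8.68 and 8.59, although the second of its 2 probe sets differed by -0.38. SARS1, for serine, read 11.75, 11.76 and 11.78 against 10.17, 10.43 and 10.45, and GARS1, for glycine, 12.25, 12.38 and 12.32 against 10.91, 11.07 and 11.09. Those for alanine (AARS1) and leucine (LARS1) differed by 0.89 and 0.87. The 4 members whose sets overlapped were HARS1, VARS1, KARS1 and FARSA, with differences between -0.18 and 0.03. KARS1, for lysine, read 11.68, 11.48 and 11.50 against 11.66, 11.64 and 11.51. The 15 mitochondrial synthetases, which serve translation inside mitochondria, had a median of -0.22 and 0 called. Without overlap 3 of them were higher and 5 lower (13.1% and 13.7% of all genes were). The difference between these lists was not tested. VARS2 was the lowest of them at -0.94, with 10.05, 10.05 and 10.09 against 11.04, 10.83 and 11.06, and NARS2 the highest at 0.83, followed by MARS2 at 0.52.

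The ATF4 list held 22 transcription factors, feedback genes and other genes tied to the pathway, such as secreted proteins and a receptor. Of these, 9 were called higher and 0 lower (1.95% and 1.12% of all genes were). Without overlap 14 were higher and 1 lower (13.1% and 13.7% of all genes were), and the median was 0.63. INHBE, which encodes the activin E subunit, read 8.31, 8.43 and 8.08 against 5.15, 4.45 and 4.21, a difference of 3.78. NUPR1, a small stress-induced chromatin protein, read 10.49, 9.71 and 9.74 against 6.58, 6.74 and 6.11, a difference of 3.72. VLDLR, a lipoprotein receptor, differed by 2.63, the secreted glycoprotein STC2 by 1.66 and the pseudokinase TRIB3, which feeds back on ATF4 and AKT, by 1.66. EIF4EBP1, the brake on cap-dependent translation under mTORC1, differed by 1.54, CEBPG, a partner of ATF4, by 1.53, VEGFA by 1.38 and the tRNA exporter XPOT by 1.06. ATF4 itself is controlled mainly through translation, and its RNA read 11.54, 11.71 and 11.70 against 11.32, 11.33 and 11.52, a difference of 0.20.

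Other classic genes of the stress branch did not share this pattern. DDIT3, which encodes the pro-apoptotic factor CHOP, read 8.68, 8.25 and 8.38 against 8.43, 8.52 and 8.56, and its sets overlapped. DDIT4, an inhibitor of mTORC1, read 12.71, 13.20 and 13.22 against 12.82, 12.99 and 13.21. CHAC1, which degrades glutathione, read 6.22, 5.50 and 5.80 against 5.65, 4.90 and 5.11, and its sets overlapped at a difference of 0.74. PPP1R15A, the GADD34 subunit that reverses eIF2 alpha phosphorylation, was lower without overlap, with 6.72, 6.73 and 6.41 against 7.64, 7.09 and 7.63. Of the 13 eIF2 alpha kinases, exchange factor subunits and partners, 0 were called. EIF2AK4 differed by -0.07 and EIF2AK3 by 0.33, both with overlap. The name amino acid stress thus covers synthesis, import and tRNA charging genes on these arrays but not DDIT3, DDIT4 or PPP1R15A.

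ER genes moved in part. Among 26 measured chaperones and unfolded protein response genes 5 were called higher and 0 lower (1.95% and 1.12% of all genes were), with a median of 0.54. ERO1B, an ER oxidoreductase, read 8.30, 7.74 and 7.86 against 5.93, 6.87 and 5.50. ERN1, the ER stress sensor IRE1 alpha, differed by 1.62, the chaperone HYOU1 by 1.53, the co-chaperone DNAJB9 by 1.09 and XBP1, the transcription factor made active by IRE1, by 1.04. The other 2 probe sets of ERN1 differed by 0.93 and -0.21. HSPA5 (BiP), the main ER chaperone, was higher without overlap by a smaller amount, 12.79, 12.81 and 12.75 against 12.39, 12.43 and 12.36. CALR (calreticulin) and ERO1A were lower without overlap, by -0.43 and -0.31, and HSP90B1, CANX, PDIA3 and P4HB differed by between -0.01 and 0.02. The cytosolic and mitochondrial heat shock list had 0 of 19 members called.

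**Figure D3:**
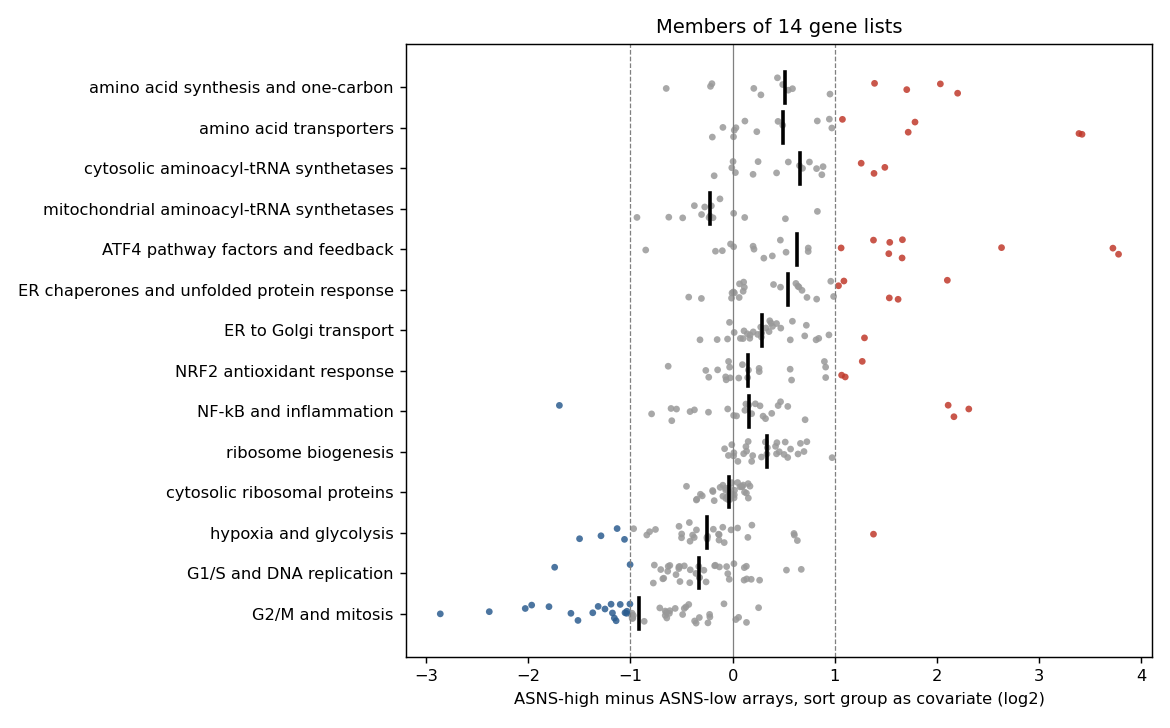
Each point is a gene of 1 of 14 lists (rows), at its difference between the array sets (x axis, log2 units, ASNS left out), red where called higher, blue where called lower and grey otherwise, with the list median as a black bar and dashed lines at 1 log2 unit. Medians run from -0.92 for G2/M and mitosis to 0.65 for the cytosolic tRNA synthetases.

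The list of transport from ER to Golgi also holds genes of protein import into the ER. Of its 31 measured genes, 16 were higher without overlap and 2 lower (13.1% and 13.7% of all genes were). The 1 called higher (1.95% of all genes) belongs to the import side. It was SEC63, a subunit of the ER import channel, with 10.44, 10.67 and 10.59 against 8.80, 9.62 and 9.28. SEC23B, of the COPII coat, SSR3, of the translocon, and LMAN1, a cargo receptor, differed by 0.94, 0.84 and 0.82. Among 35 measured secreted and mucosal proteins the cargo itself was mixed, with 5 called higher, 1 lower (1.95% and 1.12% of all genes were) and a median of 0.04. Besides LCN2, S100P, a calcium-binding protein, read 7.25, 7.47 and 7.73 against 4.88, 5.25 and 5.39. Complement C3 differed by 1.55, the immunoglobulin transporter PIGR by 1.15 and the protease inhibitor PI3 (elafin) by 1.02, though a second probe set of PIGR gave -0.02. MUC1, a membrane mucin, was lower with 8.59, 8.36 and 9.14 against 10.20, 9.53 and 9.70. LCN2 and MUC1 show that secretory genes did not move as a block.

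Of 28 measured lysosome and autophagy genes 9 were higher and 6 lower without overlap (13.1% and 13.7% of all genes were). Called higher were 2 (1.95% of all genes): LAMP3, one of the genes that label the state, and WIPI1, a protein of forming autophagosomes, which read 9.21, 9.27 and 9.74 against 8.18, 8.35 and 8.13. The autophagosome protein MAP1LC3B differed by 0.93 without overlap, while GABARAPL1 was lower at -0.48 and the list's median was 0.22. Of 23 antioxidant genes under NRF2 3 were called higher and 0 lower (1.95% and 1.12% of all genes were). Those called were ABCC3, an efflux pump for conjugates, at 1.27, HMOX1, haem oxygenase, at 1.10 and ME1, malic enzyme, at 1.07. HMOX1 differed more within SP samples (1.73) than within non-SP samples (0.48), a contrast that was not tested. SLC7A11 is a target of NRF2 as well as of ATF4, and SRXN1, GCLM and TXNRD1, other NRF2 targets, were higher without overlap by 0.91, 0.91 and 0.90, while the AKR1C1, AKR1C2 and AKR1C3 genes differed by -0.23 to -0.07.

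Some chemokines were higher on the ASNS-high arrays, but the NF-kB list as a whole was split. Of its 27 members 3 were called higher and 1 lower (1.95% and 1.12% of all genes were), with a median of 0.16. CCL2, which draws monocytes, read 7.63, 7.19 and 7.13 against 5.32, 4.79 and 5.10. CXCL1 read 11.64, 11.70 and 11.94 against 8.52, 8.89 and 10.42, and CXCL8 (interleukin-8) 6.70, 7.91 and 7.74 against 4.63, 4.73 and 5.62. CXCL2, a close relative of CXCL1, read 9.01, 10.13 and 9.95 against 9.04, 9.34 and 10.61 and overlapped. TNF was lower, with 5.72, 6.06 and 6.64 against 7.11, 7.48 and 8.17. Interferon genes included 2 of 26 called lower (1.12% of all genes were), IFIT1 at -1.74 and IFIT3 at -1.23. Among immediate early genes FOSB was the 1 of 25 called, lower at -1.60 (1.12% of all genes), with FOS at -0.94.

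Most genes of G2 and mitosis were lower on the ASNS-high arrays. Of 48 measured members 19 were called lower (1.12% of all genes were) and 0 higher, 34 were lower and 2 higher without overlap (13.7% and 13.1% of all genes), and the median was -0.92. In bulk samples such as these, fewer dividing cells and less RNA per dividing cell cannot be told apart. KIF20A, a kinesin needed for cytokinesis, read 5.99, 7.19 and 7.31 against 9.19, 9.56 and 9.58, a difference of -2.86. NEK2, a centrosome kinase, read 7.48, 8.35 and 7.21 against 10.20, 9.97 and 9.93, and CENPF, a kinetochore protein, 8.18, 9.04 and 9.18 against 10.56, 10.70 and 10.71. DLGAP5, a spindle protein, differed by -1.97, the proliferation marker MKI67 (Ki-67) by -1.80, TOP2A, the topoisomerase that untangles chromosomes, by -1.51 and the checkpoint kinase BUB1 by -1.37. The mitotic cyclins CCNB2 and CCNB1 differed by -1.14 and -1.10. Non-SP replicate 2 was the lowest of the 6 arrays for 40 of the 48 members, and the list median was -0.91 within non-SP samples and -0.70 within SP samples, a contrast that was not tested. Exceptions were CDK1, the mitotic kinase, which read 8.95, 9.36 and 9.43 against 8.37, 9.06 and 9.52 with overlap, CENPA at 0.03, and BUB3 and CKS1B, which were higher without overlap by 0.25 and 0.14.

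Of 39 measured genes of G1/S and DNA replication 2 were called lower and 0 higher (1.12% and 1.95% of all genes were). Without overlap 12 were lower and 1 higher (13.7% and 13.1% of all genes), 9 had a difference above 0, and the median was -0.33. CDT1, which licenses origins, read 5.71, 7.36 and 7.37 against 8.24, 7.64 and 8.62, and TK1, thymidine kinase, differed by -1.0. CDC6, a partner of CDT1 in licensing, was higher without overlap, with 9.29, 9.85 and 9.86 against 8.92, 9.0 and 8.84. MCM2 and PCNA differed by -0.13 and -0.32 and overlapped. Among CDK inhibitors and G1 cyclins, CCND2 (cyclin D2) was the 1 of 15 called, higher at 1.46 (1.95% of all genes were). It read 5.44, 6.42 and 5.20 against 3.59, 4.21 and 4.43. CDKN1A (p21) read 11.22, 11.74 and 11.83 against 10.84, 10.93 and 11.23 with overlap, and 0 of 19 p53 targets were called.

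**Figure D4:**
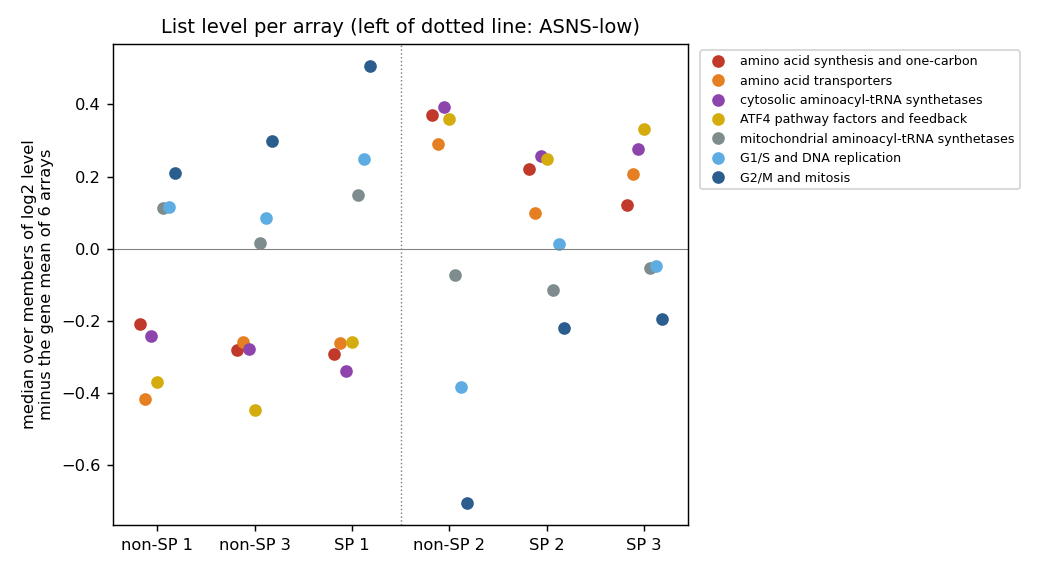
Median over a list's members of the log2 level after subtracting each gene's mean of 6 arrays (y axis), for 7 lists on each array (x axis). The 4 amino acid response lists lie above 0 on the ASNS-high arrays and below 0 on the ASNS-low arrays, and the G2/M and mitosis list lies the other way round, lowest at -0.71 in non-SP replicate 2.

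Of 33 hypoxia and glycolysis genes 4 were called lower and 1 higher (1.12% and 1.95% of all genes were). Without overlap 20 were lower and 4 higher (13.7% and 13.1% of all genes), and the median was -0.25. ALDOC, an aldolase, read 7.07, 7.80 and 7.28 against 8.73, 8.68 and 8.90, and PKM, pyruvate kinase, 10.12, 10.21 and 10.29 against 11.50, 11.04 and 11.36. PFKFB4, a regulator of glycolytic flux, differed by -1.29, the carbonic anhydrase CA12 by -1.06, ALDOA by -0.81 and GAPDH by -0.50. VEGFA, a member of both this list and the ATF4 list, was the gene called higher, and the glucose importer SLC2A1 was higher without overlap at 0.63. Cytosolic ribosomal protein genes had a median of -0.03 and ribosome assembly genes one of 0.34, with 16 of 29 higher without overlap (13.1% of all genes were) and 0 called. UTP15, an assembly factor, had the largest difference of these at 0.97. Respiratory chain and cholesterol and fatty acid synthesis genes had medians of -0.05 and 0.03 and 0 of 40 and 0 of 25 called.

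Several of the largest differences lay outside these pathways. Among the 15 genes highest in the ASNS-high set by the naming rule, NRCAM, a neuronal cell adhesion molecule, read 10.09, 10.27 and 10.35 against 6.48, 6.46 and 6.54, a difference of 3.69. MAP1B, a microtubule-associated protein best known from neurons, differed by 3.24 and its 3 probe sets by 3.03 to 3.45. RAB39B, a small GTPase of vesicle traffic, differed by 3.11. HDAC9, a class IIa histone deacetylase, differed by 3.26, but 2 of its 5 probe sets had the other sign. KLHDC7B and RHOBTB3 differed by 3.42 and 3.32. The long non-coding RNA FILNC1 read 8.66, 9.0 and 8.76 against 3.75, 4.15 and 7.32, so that SP replicate 1 lay well above the other ASNS-low arrays and the difference was 4.71 within non-SP and 1.57 within SP samples. ANKRD1, a mechanically responsive nuclear protein, differed by 2.75, and the matricellular proteins THBS1 and CCN1, members of the mesenchymal and matrix list, by 2.14 and 1.82. That list had 4 of 27 called higher, 1 lower (1.95% and 1.12% of all genes were) and a median of 0.00.

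Of the 15 genes lowest in the ASNS-high set, 6 act in mitosis or mark proliferating cells (KIF20A, NEK2, CENPF, DLGAP5, MKI67 and CDCA3). GBP2, an interferon-induced GTPase, read 6.55, 5.59 and 5.43 against 8.34, 7.77 and 9.01, a difference of -2.50. TUBB4A, a beta tubulin isotype, read 8.50, 7.71 and 7.86 against 10.83, 10.37 and 10.19, and the transcription factor TOX3 6.50, 5.48 and 5.14 against 7.70, 8.08 and 8.07. SEMA3D, a secreted guidance factor, differed by -2.00, the retinol dehydrogenase RDH10 by -1.80 and the growth factor PDGFD by -1.77. YPEL2, VWA5A and RASL11B differed by -2.31, -2.22 and -2.03, and the second probe sets of VWA5A and RASL11B differed by 0.21 and 0.97.

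The design's own comparison, SP minus non-SP, can be tested, since the ASNS level played no part in it. With limma and Benjamini-Hochberg adjustment over all 19775 genes, 1 gene (0.00506%), LINC00518, passed an adjusted p of 0.05, and 0 members of the lists described here did; 1340 genes had an unadjusted p under 0.05. ASNS differed between SP and non-SP by 0.82, with a 95% confidence interval of -1.62 to 3.27 (limma adjusted p = 0.937). SLC7A11 differed by 0.93 (interval -2.09 to 3.94), LCN2 by 1.53 (interval -2.92 to 5.97) and CDKN3 by -0.73 (interval -2.15 to 0.69). These intervals are wide. Each sort group holds only 3 arrays, and these come from both sets, but the part of either in the width was not tested. With the array set as a covariate the SP minus non-SP differences were -0.10 for ASNS, -0.20 for SLC7A11, -0.17 for PHGDH, -0.05 for LAMP3, -0.14 for LCN2 and -0.20 for CDKN3. ABCB1, the dye-exporting pump P-glycoprotein, followed the sort: it read 8.61, 10.16 and 10.22 in SP replicates 1 to 3 and 4.26, 5.81 and 4.59 in non-SP replicates 1 to 3, so the sort groups did not overlap (SP minus non-SP 4.78, limma adjusted p = 0.12). Within each sort group ABCB1 was higher on the ASNS-high arrays, by 1.39 and 1.58. ABCG2, the other well-known dye exporter, read 4.03, 5.6 and 4.53 in SP and 4.73, 5.37 and 4.59 in non-SP samples, and its SP minus non-SP difference was -0.18 (interval -1.18 to 0.82).

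Measures of RNA and array quality also differed between the sets. The ACTB 3' minus 5' signal is a measure of how far signal is lost towards the start of a transcript. It was 2.46 to 2.55 on the ASNS-high and 2.02 to 2.29 on the ASNS-low arrays. In that order the hybridisation control bioB was 10.55 to 10.68 and 10.71 to 10.88, and bioC 10.76 to 10.91 and 10.95 to 11.11. The controls bioDn and creX overlapped. The GAPDH 3' minus 5' signal overlapped as well, at 0.04 to 0.36 and 0.04 to 0.15. The array medians did not overlap, at 5.59 to 5.6 and 5.61 to 5.64. The part of these measures in the differences above was not tested. Of 13 markers of the ovarian carcinoma line, 0 lay below the first quartile on all arrays. The log2 of their summed linear signal, to which bright members add most, was 14.31 to 14.48 and 14.50 to 14.64. KRT19 (keratin 19) was the 1 member called lower (1.12% of all genes were), at -1.06. Among markers of other cell types 0 were called. CD3E was under the negative control level throughout. The log2 of the summed linear signal was also taken for the 4 leukocyte, 6 fibroblast, 5 endothelial and 2 erythroid markers measured. In that order it was 6.08 to 6.20, 7.76 to 7.94, 7.62 to 7.86 and 5.97 to 6.15 on the ASNS-high arrays. On the ASNS-low arrays it was 6.05 to 6.28, 7.81 to 7.88, 7.56 to 7.70 and 6.12 to 6.20.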

How the data were processed

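RNA was measured on 6 arrays, 3 of SP and 3 of non-SP samples, grouped by their labels. Each deposited value is a log2 level of 1 probe set, and the authors made them, per the submitters' processing notes, with R 2.8.1, affy and RMA. RMA adjusts background, gives all arrays the same distribution and summarises probes, so global changes in RNA cannot be seen and differences near background shrink. Other settings: not given in the sources used here. Of 54675 probe sets, 62 controls were left out, 41091 carried 1 gene symbol in the platform annotation, 1801 several and 11721 were unnamed here. Each of 19775 genes was represented by its brightest probe set on average. The 3 TrpnX probe sets served as negative controls.

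Differences between array sets came from limma 3.58.1 (R 4.3.3) fits with the sort group as a covariate and are untested; a fold bound replaces ASNS-low values below the negative controls by those controls. SP minus non-SP was tested over all 6 samples (lmFit, eBayes, two-sided, Benjamini-Hochberg over all genes, threshold 0.05). The fit was tested on simulated data. Whether the samples were separate cultures is not stated, so p-values reflect only the spread among these 6, possibly technical, and the number of arrays limits precision.

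Named genes were the 6 state genes, the 15 highest and 15 lowest differences among genes above the median level of 6.27 whose sets did not overlap and whose sign was the same within both sort groups, up to 6 members per list by size, and ABCB1 and ABCG2. Other genes were named after their values were seen. Members and lists were chosen with earlier results of these data known. Alternatives were probe set averaging, a filter on dim genes, 2 normalizations, covariates, variance models, array weights and leaving out each array.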

Additional observations from a re-analysis of the deposited data

How the results depend on the processing

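Under the alternatives run, 0 of the 6 list medians and 0 of the named genes called higher or lower changed sign. For called genes several alternatives could not change the sign, because the arrays of their sets do not overlap. These were leaving out 1 array, leaving out the sort group and the filter on dim genes. Among named genes that were not called, 26 changed sign under some alternative, EIF2AK3 to -0.14 with the sort group and replicate block. Sizes changed as well. A difference counted as moved if it shifted by at least 1 SD, the pooled spread of that gene within the 2 array sets. Of 208 named genes, 113 moved with the sort group and replicate block and 61 with probe sets averaged. Without non-SP replicate 2 the count was 58, without SP replicate 1 58, with cyclic loess 8 and under the other alternatives 0. The counts of genes called higher and lower ran from 266 to 488 and from 161 to 311. Centring each array on its median or cyclic loess moved the median of all genes by 0.01 each. When probe sets were averaged per gene, the list medians were 0.37 for amino acid transporters, 0.47 for cytosolic tRNA synthetases and 0.39 for ER chaperones. With only genes above the median level they were 1.02 for transporters and 0.47 for ER chaperones, and without the sort group the ER chaperone median was 0.48. The sort group and replicate block together leave 1 residual degree of freedom. With both, the medians were 0.57 for cytosolic synthetases, 0.92 for the ATF4 list and 0.46 for ER chaperones. With 1 array left out, the medians ranged from 0.45 to 0.70 for transporters and from 0.57 to 0.68 for cytosolic synthetases. They ranged from 0.50 to 0.74 for the ATF4 list and from 0.41 to 0.54 for ER chaperones. The transporter median reached 0.70 without SP replicate 1.

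SP minus non-SP gave 0 genes with the mean of probe sets and 0 with only genes above the median level, 3 with the replicate block, 5 with the array set as a covariate, 12 with array weights and 1 to 2 with 1 array left out, the 2 without SP replicate 1. The labels do not say whether same-numbered samples share more than a number, such as a culture or sort. Their deviations from the group means correlated at 0.45, 0.38 and -0.21 for replicates 1 to 3. Replicate 1 was ASNS-low and replicate 2 ASNS-high in both sort groups, while replicate 3 was split between the sets. Whether the samples are paired was not tested. ABCB1 passed with array weights (limma adjusted p = 0.038), and with the array set as a covariate (limma adjusted p = 0.0014), where that p may be too small because the sets were read from the same values. The cause of these shifts was not tested. Probes near background compress differences, which limits dim genes such as LAMP3 on the ASNS-low arrays.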
